A study of Rattus norvegicus with 10 samples.

Results

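The cadherin genes (Cdh followed by a number) and the protocadherin genes (Pcdh) encode adhesion proteins of the cell surface, and 56 of the 12828 genes in the deposited table carry such a name. The rule uses the gene symbol and no measured value. Of the 56, 18 are classical or atypical cadherins, 28 belong to the protocadherin cluster on chromosome 18 of Rnor_6.0, and 10 are protocadherins outside that cluster.

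The table comes from RNA-seq of the arcuate nucleus (ARC), a nucleus at the base of the hypothalamus that senses hormones and nutrients. Tissue was taken from 10 Wistar dams as they gave birth, 5 on the 5X-FA diet and 5 on the 5X-MTHF diet, with folic acid (FA) or methylfolate (MTHF) supplied through pregnancy. Both groups received 5 times the recommended folate, both were first-time mothers on an AIN-93G base diet, and both were killed after a daytime fast. The ARC was cut by hand from frozen slices of whole brain.

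The study compared the 2 diets. The columns of the single libraries carry bare numbers that match no dam, and they were not used here. The submitters' own comparison of the diets was not used either. What follows is therefore the average level of each gene over all libraries, with no spread between dams, no depth of a library and no difference between the diets. The level is the average log2 CPM (counts scaled to the size of the library) that the authors deposited. It measures the share of reads that a gene took, and it is not divided by gene length. Over all 12828 genes it ran from -2.07 to 14.56, with a median of 4.94.

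Of 11 markers of the ARC fixed for this purpose, 9 were in the table, from Kiss1 (kisspeptin) at an average log2 CPM of 0.08 to Cartpt, which encodes the satiety peptide CART, at 6.02. All 9 markers of other hypothalamic nuclei were listed as well, between 1.88 and 9.24. So were all 9 markers of the striatum, between 2.63 and 7.68, and 6 of 8 markers of cortex and hippocampus, between 1.96 and 7.17. The 7 thalamic markers lay between 0.49 and 5.28. Among cell types, the 5 oligodendrocyte markers had a median of 9.18, the 5 astrocyte markers 9.62, the 4 neuronal markers 9.28, the 4 microglial markers found 4.32 and the 4 endothelial and mural markers found 5.56. The 3 markers of oligodendrocyte precursors had a median of 5.62, the 3 tanycyte and ependymal markers found 3.10, and the 5 markers of meninges and choroid plexus found 3.23. Pomc, the precursor of melanocortins, was listed at 4.67 and Agrp, which encodes their antagonist, at 1.42. Npy and Nr5a2 were the ARC markers not found in the table under their symbols. By region, the ARC markers found had the lowest median, 2.45, beside 2.87 for cortex and hippocampus, 3.19 for thalamus, 4.54 for other hypothalamic nuclei and 5.37 for striatum. These are shares of reads of different genes, and the part of other regions and of each cell type in the levels below was not tested.

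Cadherins join cells through repeated extracellular domains that need calcium. Classical cadherins bind like to like across the cell contact and are tied to actin by catenins inside the cell. Type I and type II cadherins differ in how the outermost domain pairs, and neurons of different nuclei carry different sets of type II cadherins. Protocadherins outside the cluster, among them the delta-1 and delta-2 groups, guide axons and synapses. The clustered genes stand in 3 arrays, alpha, beta and gamma. In the alpha and gamma arrays each gene supplies 1 variable exon that is spliced to constant exons shared by the whole array. Beta genes have no constant exons. Of most of these promoters, each neuron turns on a small, partly random choice, which gives it a surface identity by which it avoids its own branches. The choice rests on promoters with a conserved sequence element around the letters CGCT and on the binding of CTCF and cohesin.

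RefSeq sequences of 300 bases, from 250 before to 50 after the annotated start on the build GRCr8, were at hand for 40 of the 56 genes, in 41 entries because Pcdhga4 has 2. The longest stretch around CGCT that all 10 matched beta promoters shared on the strand of the gene was GGTGGCGCTG. It stood in 0 of 10 gamma entries, in 0 of 1 alpha entry and in 0 of 20 entries of members outside the cluster. Over all 33469 promoters of this length it occurred in 0.221% on either strand, or 74 entries, of which 15 belong to genes named Pcdh. The stretch was taken from these promoters, so that its presence in all of them is a description and no test. The 10 sites are shown in full because the same letters recur with nearly the same neighbors. Capitals mark the shared letters, and each line is 30 bases of chromosome 18, plus strand, 5′ to 3′.
Pcdhb3, chr18:29285604-29285633: atgaacgcatGGTGGCGCTGttgactaaga
Pcdhb4, chr18:29292211-29292240: aaggacgcttGGTGGCGCTGcaggctaagc
Pcdhb5, chr18:29302404-29302433: atgaacgcagGGTGGCGCTGcaggctaaga
Pcdhb6, chr18:29320152-29320181: tagtacacacGGTGGCGCTGcagtctaagg
Pcdhb7, chr18:29328998-29329027: gtggacgcagGGTGGCGCTGcaggctaaga
Pcdhb8, chr18:29339258-29339287: taggacacacGGTGGCGCTGcagtctaagg
Pcdhb9, chr18:29379248-29379277: aaagacacagGGTGGCGCTGcaggctaaga
Pcdhb14, chr18:29431809-29431838: cagaacgcttGGTGGCGCTGcaggctaaga
Pcdhb19, chr18:29478764-29478793: gaagacacatGGTGGCGCTGcaggataatg
Pcdhb20, chr18:29485810-29485839: agagacacatGGTGGCGCTGtaggataaga

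In 8 of these 10 promoters the first shared letter lay between 46 (Pcdhb7) and 74 (Pcdhb19) bases before the annotated start. In Pcdhb8 and Pcdhb6 it lay 208 and 229 bases before it. Pcdhb6 and Pcdhb8 also share the flank cagtctaagg, which the other 8 lines do not show.

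For the gamma promoters the rule was looser, since the stretch had to stand in at least 5 of the 10 entries and not in all. The longest stretch in at least 5 of the 10 gamma entries was GCCGCTGTT, which stood in 5 of them on the strand of the gene and in 0 of the 10 beta promoters. Over all 33469 promoters it occurred in 0.245%, or 82 entries, 6 of them of genes named Pcdh. This stretch was likewise taken from the gamma promoters, so that its presence in 5 of them is a description and no test. These 5 sites are shown for comparison with the beta sites, with the shared letters in capitals, on the plus strand of GRCr8.
Pcdhga7, chr18:29794208-29794237: gactctgcgtGCCGCTGTTcaccaaccatg
Pcdhga8, chr18:29805003-29805032: gactctaagcGCCGCTGTTcacctgctaag
Pcdhga9, chr18:29815786-29815815: ggctctgagcGCCGCTGTTcaccaactgta
Pcdhga10, chr18:29825817-29825846: gactctgagcGCCGCTGTTcacctaccagg
Pcdhgb8, chr18:29839499-29839528: gactctgggcGCCGCTGTTgtccaattcgc

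The short core CGCT by itself, on either strand, was found in 10 of 10 beta entries and 8 of 10 gamma entries, but also in 60.9% of all promoters, so that it sets these genes apart little. The TATA letters TATAAA stood in 2 of 10 beta and 2 of 10 gamma entries, beside 14.2% of all promoters. Beta promoters were poor in G and C, between 35.0% and 42.3% with a median of 38.2%, where the median of all promoters was 51.7%. Gamma entries had a median of 44.8% and members outside the cluster 56.5%.

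In reads taken, the 56 genes spread widely around the table's median (the plot of levels by subfamily). Their average log2 CPM ran from 1.96 (Pcdhb6) to 7.60 (Cdh2), or from 3.88 to 194.1 CPM. A total of 19 genes lay above the median of the table and 37 at or below it. In read share the division differed from group to group. It also cut through several subfamilies, among them the type II cadherins with 7 genes above the median and 6 at or below. Above the median lay 8 of 10 protocadherins outside the cluster and 9 of 18 cadherins, against 2 of 28 clustered genes. Read share is not per length, and the models of 26 clustered genes span only 2.32 to 3.38 kb. The median span over the table is 21.5 kb, and the part of length in this division was not tested. By rank among all genes, 8 of the 56 were at or above percentile 80 and 25 were below percentile 25.

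**Figure D1:**
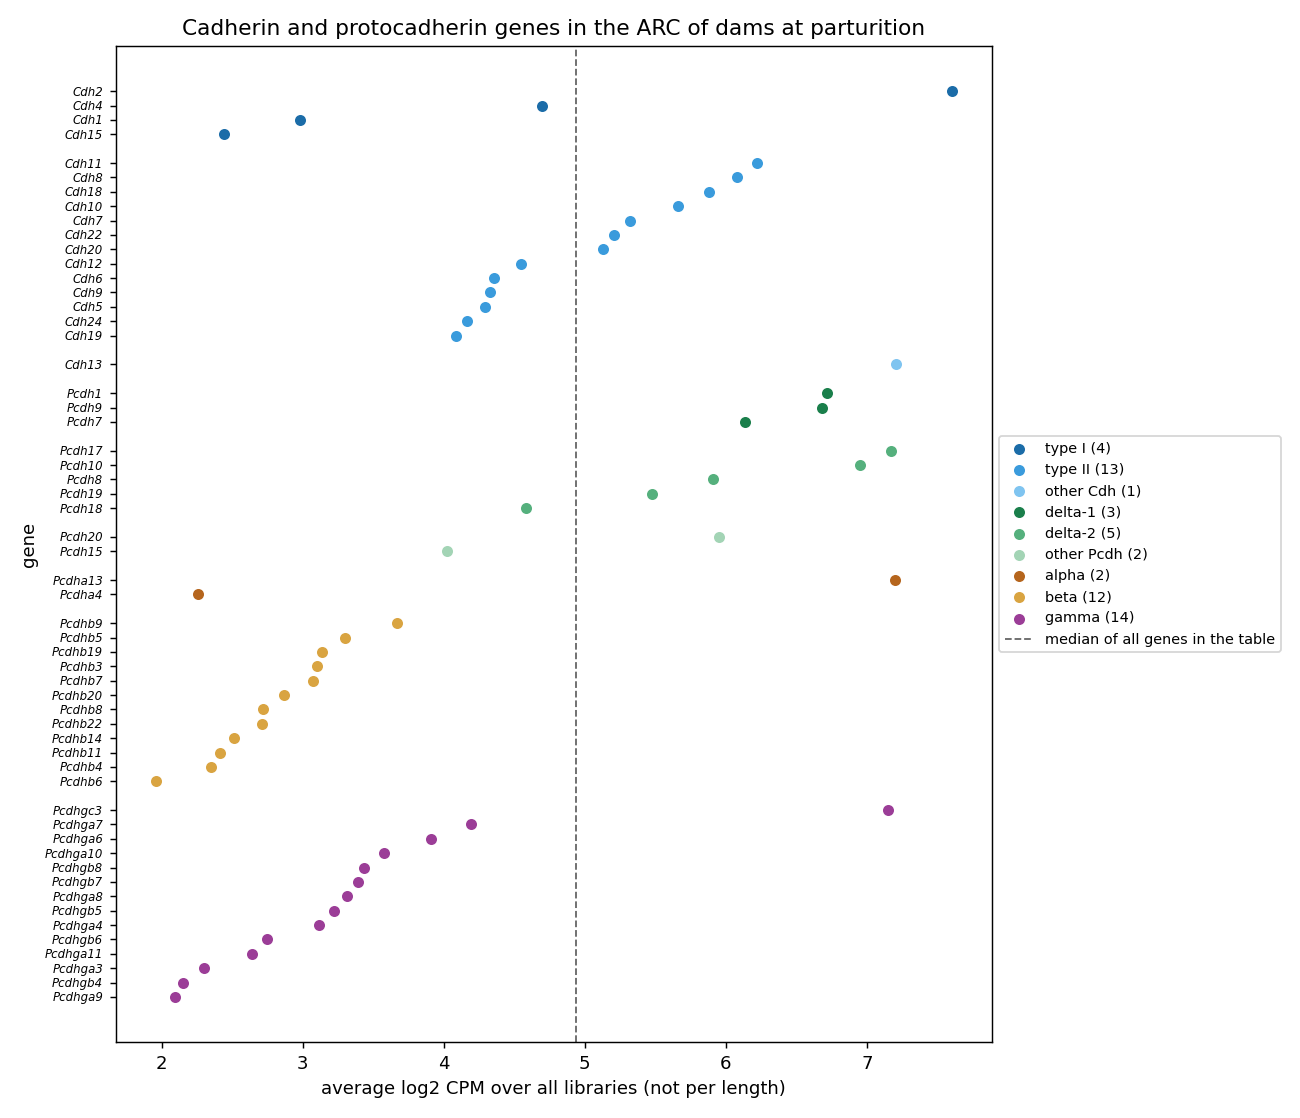
Average log2 CPM over all libraries, not corrected for length (x axis), of each of the 56 cadherin and protocadherin genes (y axis, grouped and colored by subfamily with the number of genes in brackets). Each point is 1 average with no error, the dashed line is the median of all genes in the table (4.94), and the beta genes and all gamma genes but Pcdhgc3 lie to its left.

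Among the type I cadherins, known from strong cell contacts, Cdh2 stood apart. Cdh2 encodes N-cadherin, the cadherin of neural tissue and of many synapses, and its average log2 CPM of 7.60 placed it at percentile 92.7 of the table. The gene lies on chromosome 18 of Rnor_6.0 from 8146971 to 8360684, far from the protocadherin cluster. Cdh4, which encodes R-cadherin, followed at an average log2 CPM of 4.70. Cdh1, the E-cadherin of epithelia, was listed at 2.98 and Cdh15, the M-cadherin first described in muscle, at 2.45, which placed them at percentiles 15.6 and 10.2.

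The type II cadherins, by contrast, filled a narrow band. Their 13 levels ran from 4.09 to 6.22 in average log2 CPM, with a median of 5.13, and 7 of them lay above the median of the table. The order began with Cdh11 (6.22), Cdh8 (6.08) and Cdh18 (5.88), which are known from neurons and, for Cdh11, also from mesenchymal cells. It ended with Cdh19 (4.09), a cadherin described in glia of the neural crest lineage. Cdh5, the VE-cadherin of endothelium, belongs to this group by sequence and was listed at 4.30. In bulk tissue a low level cannot be told apart from a high level in few cells, which bears on Cdh5 in particular. The reading for Cdh22 (5.21) is less certain than the others because its gene model overlaps those of Slc35c2 and Elmo2, and Elmo2 had a higher level of 7.06. The methods describe the libraries as strand-specific, but whether the counting used strand is not given in the sources used here.

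Cdh13, or T-cadherin, is the atypical member that lacks a cytoplasmic tail and is held by a lipid anchor. It had the second highest level of the 56, an average log2 CPM of 7.21 at percentile 89.2. It was also the longest gene of the group. It covers 1123.4 kb of chromosome 19, from 50848736 to 51972103, and 9 genes of the table are longer.

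Among the protocadherins outside the cluster, the delta-1 group encodes proteins with a longer extracellular part and a tail that binds protein phosphatase. All 3 of its genes in the table lay above the median, with Pcdh1 at 6.71, Pcdh9 at 6.68 and Pcdh7 at 6.14 in average log2 CPM. The delta-2 group, several of whose tails bind the WAVE complex that drives actin branching, ranged more widely. Pcdh17 was listed at 7.17 and Pcdh10 at 6.95, then Pcdh8, which is induced by activity and takes part in removing cadherin from synapses, at 5.91. Pcdh19, the X-linked gene of a human epilepsy that mainly affects females, stood at 5.47, and Pcdh18 at 4.58 was the 1 member of the group below the median. Of the remaining pair, Pcdh20 was listed at 5.95 and Pcdh15, known from the tip links of hair cells, at 4.02.

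In the cluster, 2 genes stood far from the other 26. Pcdha13 had an average log2 CPM of 7.20 and Pcdhgc3 of 7.15, and the next gene, Pcdhga7, stood at 4.19. The other 26 lay between 1.96 and 4.19, all below the median of the table, with a median of 2.97. Their gene models differ in the same way. The model of Pcdha13 runs over 228.7 kb, from 29987206 to 30215897, and that of Pcdhgc3 over 55.5 kb, from 30913842 to 30969361, whereas those of the other 26 genes run over 2.32 to 3.38 kb, about the length of 1 variable exon. Each of the long models is the last of its array in the table. How many of their reads fell on the constant exons that all genes of an array share was not tested, so that the levels of Pcdha13 and Pcdhgc3 cannot be read as those of single variable exons.

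Counted in this way, Pcdha13 took 96.8% of the CPM of the 2 alpha genes in the table. It took 30.5 times as much as Pcdha4, which was listed at an average log2 CPM of 2.26. Pcdhgc3 took 54.0% of the summed CPM of the 14 gamma genes. Its own 142.1 CPM compared with 121.2 CPM for the other 13 together. These sums use 2 raised to the average log2 CPM, which is not exactly the average CPM. RefSeq has 76 symbols that match the naming rule, and 25 of them are absent from the table. The sums cover only the genes listed, which need not be the whole of an array.

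**Figure D2:**
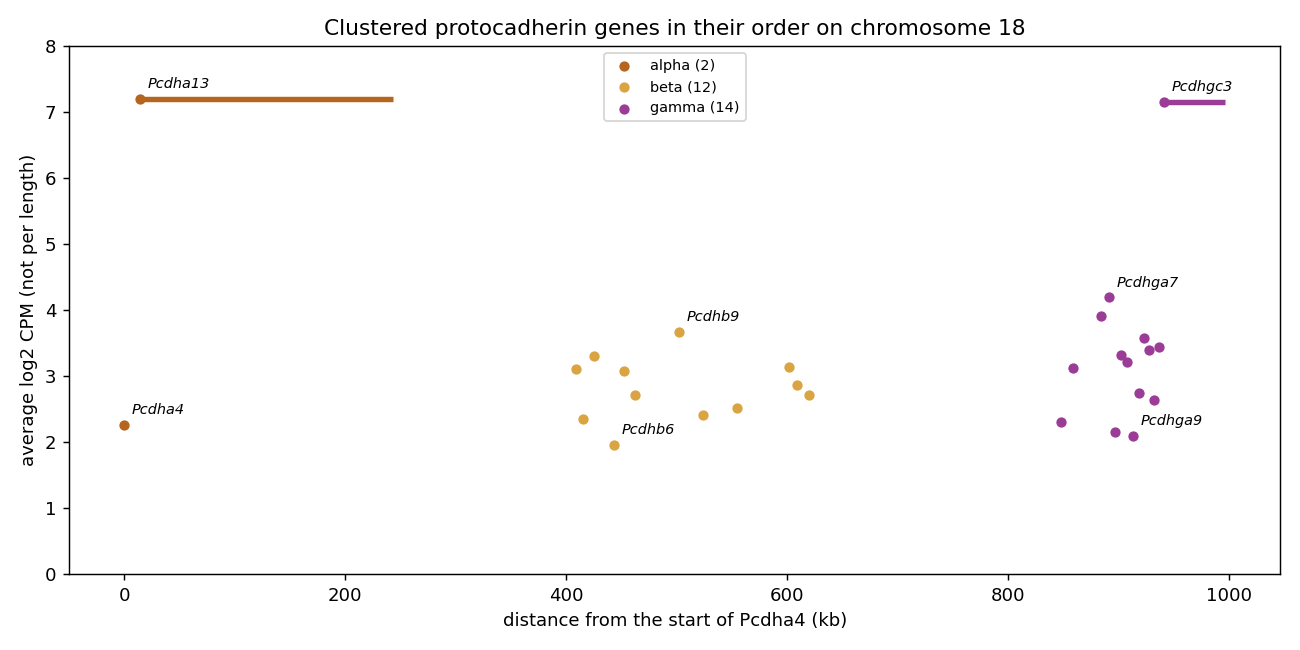
Average log2 CPM over all libraries (y axis, not per length) of the 28 clustered protocadherin genes against the distance of the gene from the start of Pcdha4 in kb (x axis), colored by array. Points mark the lower coordinate of each gene model and bars its extent, no errors are shown, and the long models of Pcdha13 and Pcdhgc3 lie near 7 while the short ones lie between 1.96 and 4.19.

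The whole cluster covers 996.6 kb of chromosome 18, from 29972808 to 30969361. That interval holds 35 genes of the table, 28 of them named as clustered protocadherins (the map of the cluster by distance). The other 7 do not match the naming rule by symbol, and what they encode was not looked up. The alpha, beta and gamma genes come in that order without mixing. The 12 beta genes fill 213.9 kb with a median gap of 7.89 kb, and the 14 gamma genes fill 149.0 kb with a median gap of 2.66 kb. These gaps run between neighboring members in the table and may hold other genes. The beta interval holds 3 other genes of the table and the gamma interval 1. At 35.1 genes per Mb the interval was denser than the chromosome as a whole, which has 3.93 genes of the table per Mb.

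Because the short models are of similar length, their levels can also be set against length. CPM divided by the span of the model is a level per length where the model has no intron and a lower bound of it where it has one. The exons of the models were not looked up. Among the 26 short clustered models this value ran from 1.66 to 7.53 CPM per kb, a 4.52-fold range. Pcdhga7 (7.53) and Pcdhga6 (6.22) headed the gamma genes and Pcdhga9 (1.77) closed them. In the beta array the order began with Pcdhb9 (4.01), Pcdhb5 (3.81) and Pcdhb19 (3.66) and ended with Pcdhb6 (1.66 CPM per kb). Pcdhb11, whose model of 2.32 kb is the shortest of the 56, had 2.29 CPM per kb. Pcdhb6 is annotated as a pseudogene in the deposited table but as protein-coding by RefSeq, and its promoter carries the stretch shown above.

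The 8 gammaA genes had a median of 3.85 CPM per kb and the 5 gammaB genes of 3.49, with ranges that overlapped (1.77 to 7.53 and 1.87 to 4.35). The 12 beta genes had a median of 2.78. Since no spread between dams was used, whether neighbors in this order differ was not tested. Beta and gamma genes are close copies of each other. Reads that fit several copies may have been lost in counting, which makes these levels uncertain.

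**Figure D3:**
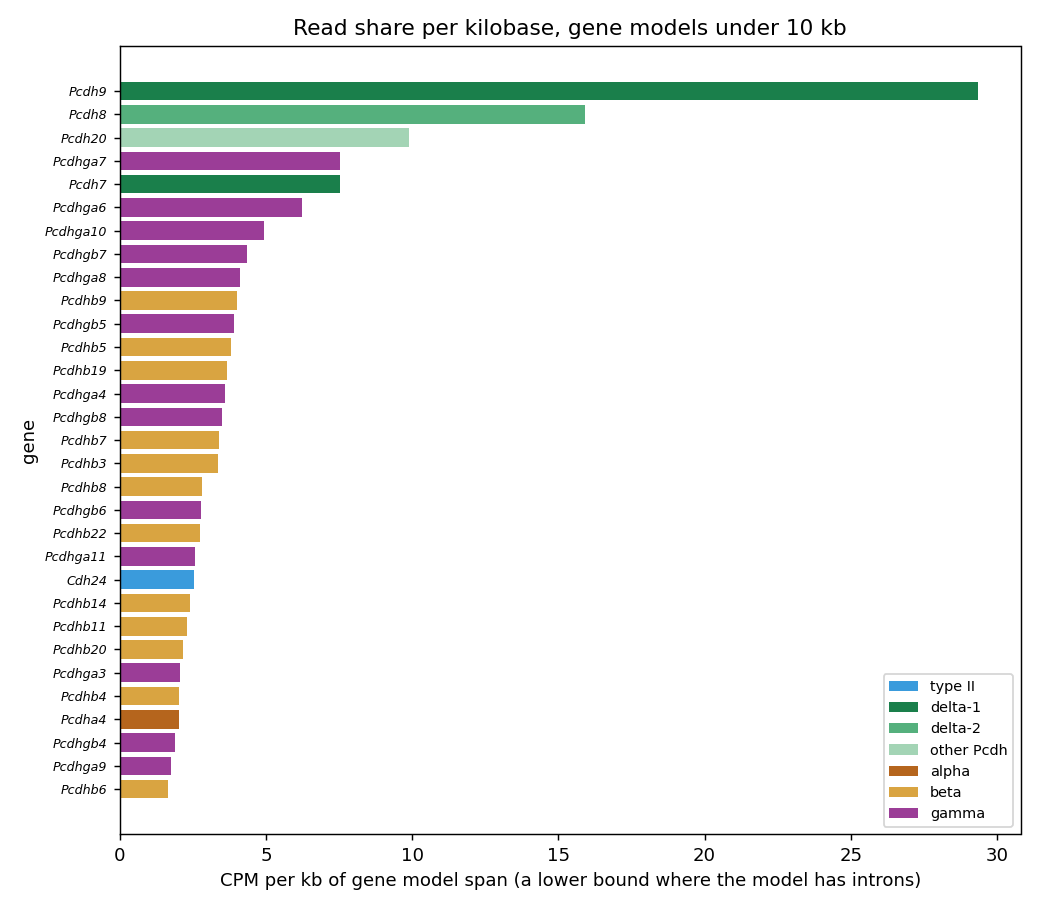
CPM divided by the span of the gene model in kb (x axis) for the 31 members whose model is shorter than 10 kb (y axis, colored by subfamily). The bars have no error, they are lower bounds for models with introns, and Pcdh9 (29.3), Pcdh8 (15.9) and Pcdh20 (9.89) lie above every short clustered model.

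As counted and per length, some protocadherins outside the cluster had higher values than every short clustered gene (the bars of CPM per kb), with the uncertainty of the clustered values just given. Pcdh9 had at least 29.3 CPM per kb, 3.90 times the value of Pcdhga7, and Pcdh8 at least 15.9, or 2.12 times that value. Pcdh20 followed at no less than 9.89 CPM per kb. Pcdh7, at 7.52 or more, could not be placed above or below Pcdhga7. The models of Pcdh9 (3.49 kb) and Pcdh8 (3.78 kb) were short enough for such a bound. Whether these models and the short clustered ones hold like parts of their transcripts was not looked up. For cadherins the bound says little, since their spans hold large introns. It was 0.91 CPM per kb for Cdh2 and 0.13 for Cdh13.

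Outside the cluster, several runs of members lie in long intervals with few other genes of the table. On chromosome 2, the type II genes Cdh6, Cdh9, Cdh10, Cdh12 and Cdh18 follow each other over 11.6 Mb, from 63101739 to 74693341, and the interval holds 1 other gene of the table. Its density of 0.52 genes per Mb compared with 3.14 for the chromosome. On chromosome 19, Cdh5, Cdh11 and Cdh8 lie within 5.40 Mb that hold 1 other gene, at 0.74 genes per Mb against 6.45. Pcdh8, Pcdh17, Pcdh20 and Pcdh9 follow each other on chromosome 15 over 15.5 Mb with 4 other genes, or 0.51 genes per Mb against 3.28. Pcdh10 and Pcdh18 are next to each other on chromosome 2 with 0 genes of the table between them. The third run of type II genes, Cdh20, Cdh7 and Cdh19 on chromosome 13, holds 9 other genes within its 7.60 Mb, at 1.58 genes per Mb against 3.37.

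Within these runs the listed levels varied from gene to gene, again with no error. In the run on chromosome 2 the average log2 CPM went from 4.35 (Cdh6) and 4.33 (Cdh9) to 5.66 (Cdh10), 4.54 (Cdh12) and 5.88 (Cdh18). On chromosome 15 it was 5.91 for Pcdh8, 7.17 for Pcdh17, 5.95 for Pcdh20 and 6.68 for Pcdh9. The cadherins were long genes as well: 11 of 18 spanned more than 100 kb, or 61.1%, beside 13.4% of all genes in the table and 0 of 26 short clustered models.

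The partners of these proteins were looked up from a list of 61 genes, of which 49 were in the table, with a median average log2 CPM of 6.52. Of 13 catenins and plaque proteins, which tie cadherin tails to actin, 11 were found. Pkp4 (8.81), Ctnnb1, the beta-catenin gene (8.31), and Ctnnd2, the neuronal delta-catenin gene (7.59), had the highest levels in average log2 CPM. All 3 calsyntenins, cadherin-like proteins of the synapse, were found, with Clstn1 at 9.61, Clstn3 at 9.16 and Clstn2 at 5.85. Of the 10 large cadherins of planar cell polarity and their regulator, 7 were found, led by Celsr2 (7.95), Fat1 (7.28) and Celsr3 (6.80). All 6 WAVE complex genes were in the table, between 6.52 and 9.87, with Cyfip2 (9.87), Nckap1 (9.19) and Abi2 (7.08) first. All 8 genes of CTCF and cohesin, which loop the clustered promoters to their enhancers, lay between 5.67 and 7.51. Rad21 (7.51), Stag2 (7.24) and Smc1a (7.21) headed them, and Ctcf itself was listed at 6.38.

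Of the 3 factors that silence the cluster, Smchd1 (6.09) and Setdb1 (5.94) were found. The kinases that signal from cadherins included Ptk2b (7.41), Fyn (7.08) and Ptk2 (6.47), and all 4 on the list were found. The protease Adam10, which sheds N-cadherin, was listed at 6.91. Of 4 nectins 3 were found, Nectin1 at 6.48, Nectin2 at 4.25 and Nectin3 at 4.13. Of 8 Cdhr and desmosomal genes 3 were found, Cdhr2 at 5.28, Cdhr1 at 3.60 and Cdhr3 at 1.21.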

How the data were processed

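RNA of the ARC of 10 dams was sequenced after poly-A selection. According to the methods and the labels, reads were trimmed (Trim Galore 0.5.0), aligned by the authors with STAR 2.6.0c to Rnor_6.0 with Ensembl gene models, and counted with HTSeq 0.6.1p2. The authors deposited 1 table of genes left after a filter. Its average log2 CPM, 1 value per gene over all libraries, was used as deposited on the log2 scale. The base of the logarithm is not given in the sources used here, and base 2 was taken from the layout of the table. The table also holds 4 columns of the submitters' comparison of the diets (fold change and F statistic, with the p-value before and after adjustment), which were not used, and 10 columns of single libraries, which were not used since their names match no dam. The tests planned over dams were therefore not run, and the values used do not carry the depth of a library.

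Members were the rows whose symbol matched the rule. Percentiles are the share of rows at or below a value. CPM per kb is 2 raised to the average log2 CPM, divided by the span of the gene model. Promoters came from RefSeq on GRCr8 and were searched on both strands for the core CGCT, for TATAAA, and for the longest stretch around the core shared by all beta entries or by at least 5 gamma entries. The core lies within both longer motifs. Of the 56 symbols, 51 were in RefSeq. Named were the up to 3 highest and the lowest gene by level in each subfamily, every gene of a subfamily of up to 6, the longest and shortest, and the up to 3 highest partners of a group. Other genes were named after their values were seen. Members and lists were chosen with earlier results of these data known. Calculations were tested on simulated data. Calculations used pandas 2.3.3, numpy 2.4.6 and scipy 1.17.1 in Python 3.11.15, and matplotlib 3.10.9 drew the plots.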

Additional observations from a re-analysis of the deposited data

How the results depend on the processing

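The median percentile of the 56 genes was 32.2 among all rows, 30.5 among protein-coding rows and 30.2 among rows whose average log2 CPM reached 1. Leaving out low rows lowers every percentile by construction. Under all 3 settings 19 genes lay above the median. Single percentiles fell by at most 1.86 points among protein-coding rows and by at most 2.74 points among rows that reached 1. No paired analysis was possible because the columns of the libraries carry no replicate number of the labels. Since no diets were compared, the alternatives planned for that comparison were not run, namely DESeq2, another pseudocount, a filter before the test, fits without 1 dam, and adjustment over protein-coding rows. A second length for the level per kilobase was not at hand.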
